A study of Drosophila melanogaster with 7 samples.

Results

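Hormone-expressing cells of Drosophila midgut tumors were picked out of single-cell transcriptomes by the messengers of their peptides. A cell was taken when it held at least 1 unique molecular identifier (UMI, 1 captured transcript) of prospero (pros), Tachykinin (Tk), Allatostatin A (AstA), Allatostatin C (AstC), CCHamide-1 (CCHa1), CCHamide-2 (CCHa2), Diuretic hormone 31 (Dh31), neuropeptide F (NPF) or Myoinhibiting peptide precursor (Mip), or at least 2 UMIs of Orcokinin. This gave 108 of 7899 kept cells (1.37%). Those with 2 or more UMIs over all 10 genes are called the core, and there were 64 of them. The UMIs of these 10 genes chose the cells, so their levels are given as a description, and all tests left the 10 genes out.

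Enteroendocrine cells are the hormone-secreting cells of the gut lining. In the fly midgut they arise from intestinal stem cells, carry the transcription factor Prospero and are known for a pair of broad classes, one secreting AstC and the other Tk, with further peptides that depend on the region of the gut. Their peptides are cut out of longer precursors by the convertase amontillado (amon) with its helper 7B2, trimmed by the carboxypeptidase silver (svr), amidated by Phm and the Pal lyases, and stored in dense-core vesicles, whose membrane holds the phosphatase-like protein IA-2.

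The 7 droplet libraries came from 1 genotype, obtained by a cross. One parent carried yw, HS-flp and HS-mflp5, together with esg-gal4 and UAS-flybow, and FRT82B with Tub-Gal80, and the other parent carried yw and HS-flp with UAS-RasV12, and FRT82B with the Apc2N175K and ApcQ8 alleles. A heat shock at 37°C for 2 h, given 2 to 3 days after eclosion, made clones that were mutant for both Apc genes and expressed RasV12. Tumors were dissected at least 21 days later, at ages that the study lists per library, Tind3 being the oldest. A single tumor went into each of 6 libraries (Tind1 to Tind6, tumors 1 to 6 in the plots) and 6 tumors together into another (Tgrp), with no mark of a cell's tumor, and there was no control genotype. The driver esg-Gal4 acts in stem cells and enteroblasts, so a cell that has become enteroendocrine may no longer express RasV12 or the fluorophore, and a dissected tumor may also hold cells in which no recombination took place. The libraries held 289733 to 6354105 UMIs, and the median kept cell had 317 to 2383.5 UMIs. Tind4 and Tind5 shared 116 cell barcodes, against at most 3 in any other pair, and the 99 such Tind5 cells that passed the other filters were left out (0 of them met the hormone rule).

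The share of kept cells that were hormone-expressing was 0.678% in Tind1 (14 cells; exact 95% interval 0.371 to 1.14%), 0.338% in Tind2 (3 cells; 0.0697 to 0.983%) and 0.510% in Tind3 (2 cells; 0.0619 to 1.83%). It was 1.56% in Tind4 (12 cells; 0.808 to 2.71%), 3.08% in Tind5 (17 cells; 1.80 to 4.89%), 0.647% in Tind6 (2 cells; 0.0785 to 2.32%) and 1.99% in Tgrp (58 cells; 1.51 to 2.56%). The mean over the individual tumors was 1.14% ± 1.04 (SD, n = 6), so the spread between tumors was nearly as large as the mean. Core cells numbered 7, 2, 0, 5, 13 and 1 in Tind1 to Tind6 and 36 in Tgrp, or 0.649% ± 0.862 of the kept cells of a tumor (SD, n = 6). For Tind3, 0 core cells of 392 allow a share of up to 0.937%. These intervals cover counting error only. When every cell was thinned to 300 UMIs before the rule was applied, the mean share was 0.511%.

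**Figure D1:**
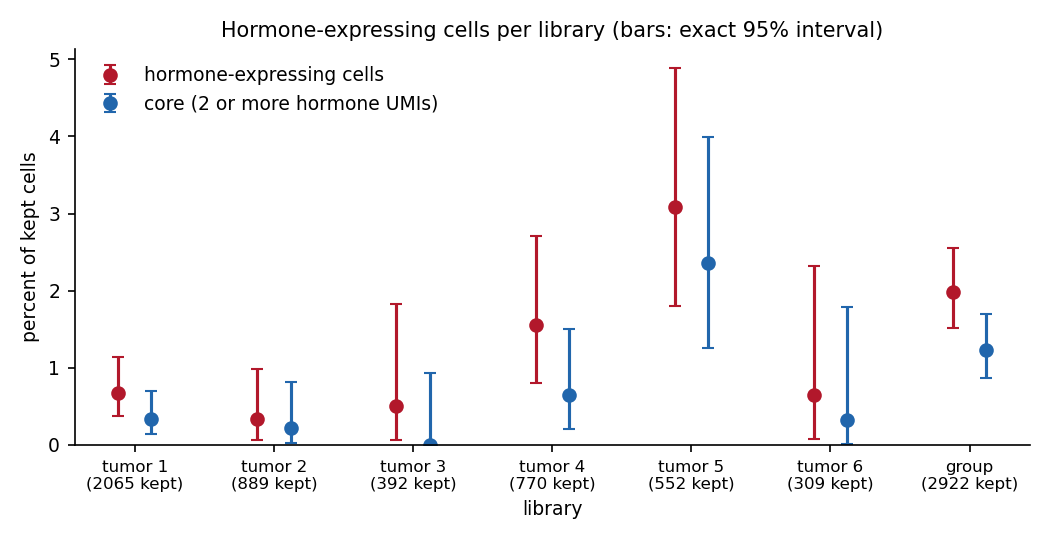
Percent of the kept cells of each library that were hormone-expressing (red) and core (blue), with exact 95% binomial intervals; the 6 individual tumors and the group library stand along the x axis. Tind5 has 3.08% hormone-expressing cells, and the other individual tumors have 0.338 to 1.56%.

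A few cells held most of the hormone messenger. The 108 cells had 1423 UMIs of the 10 genes, with a median of 2 per cell. The 21 cells with 10 or more of these UMIs held 1241 of them (87.2%), and 16 of these cells were from Tgrp, 3 from Tind5 and 2 from Tind2. The richest pair, both from Tind2, had 293 Orcokinin and 30 AstC UMIs (41.5% of all UMIs of the cell) and 252 Orcokinin and 18 AstC UMIs (45.4%). A Tind5 cell had 84 CCHa2 UMIs (24.0% of its UMIs), another Tind5 cell had 65 Tk UMIs, and the richest AstA cell, from Tgrp, had 54 AstA UMIs.

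By what they held, 47 cells had 2 or more UMIs of one of the 9 genes other than Orcokinin, 44 cells had 1 hormone UMI in all, 12 cells had Orcokinin alone and 5 cells had other mixtures. The first kind lay mostly in 2 libraries, with 33 cells in Tgrp, 10 in Tind5, 2 in Tind2, 1 each in Tind1 and Tind6, and 0 in Tind3 and Tind4. Tk led in 18 of them (10 from Tgrp, 8 from Tind5), AstA in 17 (all from Tgrp), pros in 7, CCHa1 in 1 and another gene in 4. The cells with Orcokinin alone had 2 or 3 UMIs of it in 11 cases (4 in Tind1, 5 in Tind4, 2 in Tgrp) and 17 in 1 Tind5 cell. The cells with 1 UMI were spread over all 7 libraries. At the edge of the rule, 44 cells entered with a single UMI, and 65 kept cells with 1 UMI of Orcokinin and none of the other genes stayed outside, 25 of them in Tind1, 17 in Tgrp and 16 in Tind4.

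**Figure D2:**
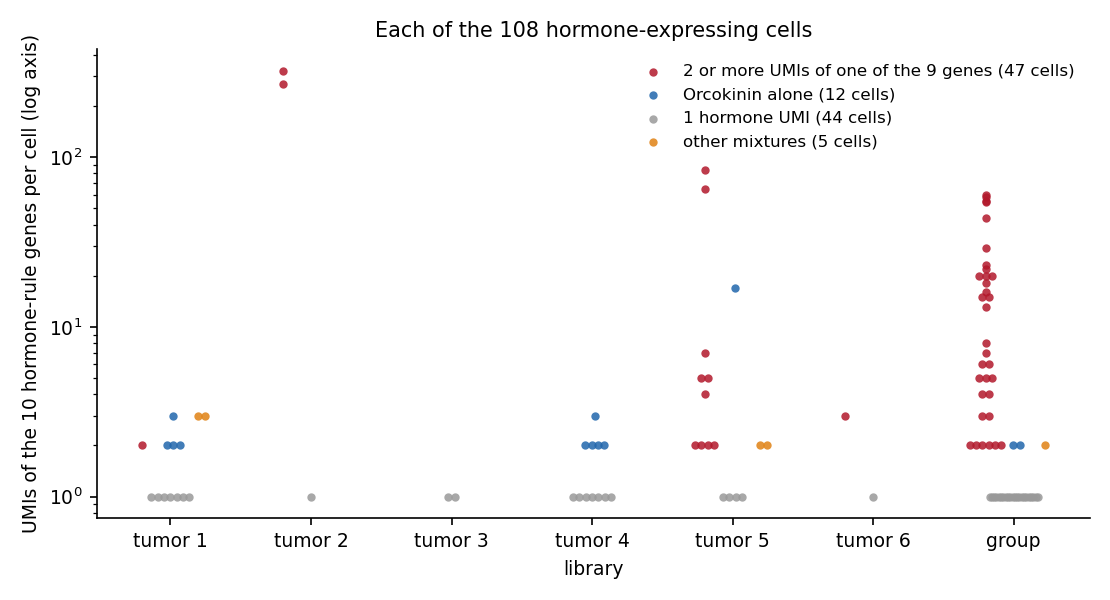
UMIs of the 10 genes in each of the 108 cells (y axis, log scale) by library (x axis); each point is 1 cell, colored by what the cell held. The 47 cells with 2 or more UMIs of one of the 9 genes (red) lie mostly in Tind5 and Tgrp, while the cells with Orcokinin alone (blue) lie mostly in Tind1 and Tind4.

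Of the single genes, Orcokinin (FBgn0034935) was the most often found, in 82 kept cells (1.04%; 656 UMIs, 546 of them in Tind2). AstA (FBgn0015591; release 6 of the genome, chromosome 3R, 24760530 to 24765071, minus strand) was found in 28 cells with 340 UMIs, 337 of them in Tgrp. Tk (FBgn0037976; 3R, 11994175 to 12005473, minus strand), a hormone that acts on gut muscle and fat storage, was found in 23 cells with 241 UMIs, in 11 cells of Tind5, 11 of Tgrp and 1 of Tind3. pros (FBgn0004595; 3R, 11328480 to 11407627, plus strand) was found in 45 cells (0.570%) at no more than 4 UMIs each. CCHa1 was found in 14 cells, Dh31 in 9 cells with 1 UMI each, CCHa2 in 8, AstC in 3, Mip in 2 and NPF in 1. Droplets also take up free RNA, and its part in these counts was not tested. In 540 kept cells with 2 or more UMIs of enterocyte genes other than Ssk, mesh and Tsp2A, pros was found in 1.85%. Orcokinin was found in 1.11% of them, AstA in 0.741%, Tk in 0.556%, CCHa1 in 0.370% and Dh31 in 0.370%. Their median depth was 2793.5 UMIs, while the hormone-expressing cells had 1296.5. Of the 540 cells, 15 were themselves hormone-expressing and are counted in these shares, which therefore give no background rate. By itself, a single UMI of these genes was not read as expression. Of the 108 cells called hormone-expressing, 44 held 1 such UMI, so the name here means only that a cell met the rule. Among the 17 cells whose 1 hormone UMI was of pros, 3 (17.6%) held a UMI of the peptide-processing genes amon, 7B2, Pal2 or IA-2, against 7 of 1080 depth-matched cells (0.648%).

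Cells with pros, Tk, AstA or CCHa1 often held another of the 10 genes, mostly in Tgrp and Tind5. Of the cells with a pros UMI, 23 of 45 (51.1%; exact 95% interval 35.8 to 66.3%) had a UMI of another of the 10 genes, against 6 of 450 depth-matched cells without pros (1.33%). The share was 11 of 23 for Tk (47.8%), against 3 of 230 matched cells, and 19 of 28 for AstA (67.9%), against 1 of 280 matched cells. For CCHa1 it was 13 of 14 (92.9%), against 2 of 140. AstA and CCHa1 shared 11 cells, which is 78.6% of the CCHa1 cells and 39.3% of the AstA cells. pros shared 13 cells with AstA and 11 with Tk, while Tk and AstA shared 3. For Orcokinin it was 5 of 82 (6.10%), against 6 of 820 matched cells (0.732%), for Dh31 1 of 9, against 1 of 90, and for CCHa2 0 of 8 (which allows up to 36.9%), against 2 of 80. These shares count cells, which are not replicates, and were not tested. Within libraries the Tk share was 5 of 11 in Tind5 and 6 of 11 in Tgrp. Of the 19 AstA cells with another gene 18 were from Tgrp, as were 12 of the 13 such CCHa1 cells. The pros share was 17 of 32 in Tgrp, 5 of 6 in Tind5 and 1 of 2 in Tind6. It was 0 of 2 in Tind1, 0 of 1 in Tind3 and 0 of 2 in Tind4.

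**Figure D3:**
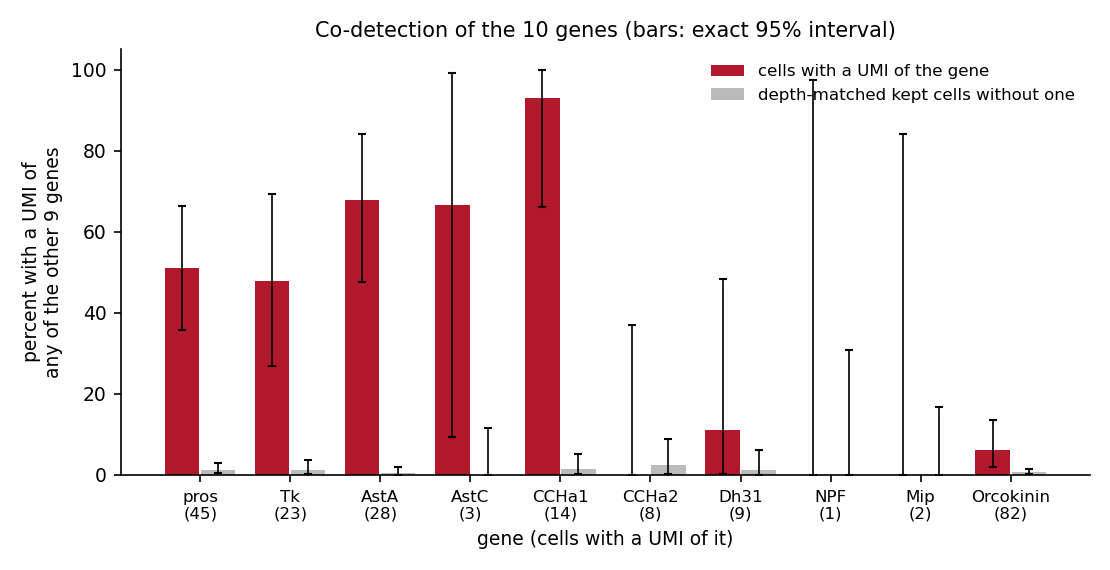
Percent of the cells with a UMI of each gene that also had a UMI of another of the 10 genes (red, left of each pair), and the same percent in depth-matched kept cells without the gene (gray, right); bars show exact 95% intervals, and the number of cells is in parentheses. pros, Tk, AstA and CCHa1 reach 47.8 to 92.9%, against 0.357 to 1.43% in their matched cells, while Dh31 and Orcokinin reach 11.1 and 6.10% and CCHa2 reaches 0%.

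To ask what the hormone-expressing cells have in common beyond the rule, the UMIs of all other genes were summed per library in these cells and in the 10 other kept cells of the same library nearest in depth to each (1080 cells in all), and compared with edgeR's quasi-likelihood test, with the library as a block and Benjamini-Hochberg adjustment over all genes tested. Tind3 and Tind6, with fewer than 3 such cells, did not enter. Of 796 genes 1 was called (0.126%), lncRNA:noe. It stood at 1327, 0, 355, 3662 and 2243 CPM (UMIs per 1000000 UMIs of the sum) in the hormone-expressing cells of Tind1, Tind2, Tind4, Tind5 and Tgrp, against 185, 47.3, 87.3, 1391 and 119 in their matched cells. It was higher in 4 of the 5 libraries, with a log2 fold change of 2.70 ± 0.52 (SE; adjusted p = 0.036). In 3 of these 4 libraries 1 cell held most of its UMIs, namely 77.6% in Tind1, 92.3% in Tind4 and 68.3% in Tind5. The call was lost without Tind4 (adjusted p = 0.22), without Tgrp (adjusted p = 0.27), against all other kept cells (adjusted p = 0.47), without the library block (adjusted p = 0.87) and under a stricter rule of 2 or more UMIs of one of the 9 genes (adjusted p = 0.096).

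For the 64 core cells, compared in Tind1, Tind4, Tind5 and Tgrp, 0 of 1092 genes were called by edgeR (0.0%), with 52 at an unadjusted p under 0.05, while DESeq2 called 3. The gene with the smallest p was Phm, the monooxygenase that starts peptide amidation, with a log2 difference of 2.31 (adjusted p = 0.34; above its matched cells in 4 of 4 libraries). Ras85D, the gene of the RasV12 transgene, stood at 94.4, 508, 746 and 1130 CPM in the core cells of Tind1, Tind4, Tind5 and Tgrp, against 2227, 1424, 1644 and 2294 in matched cells. It was below its matched cells in 4 of 4 libraries, with a log2 difference of -1.83 that was not called (adjusted p = 0.49). The counting did not separate the transgene from the fly's own Ras85D.

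The picture changed with the stricter rule of 2 or more UMIs of one of the 9 genes, which leaves out the Orcokinin cells and the cells with a single UMI. It could be tested in Tind5 (10 cells, against 100 matched cells) and Tgrp (33 cells, against 330), the libraries with at least 3 such cells, so the fit rests on 4 sums. Its matched cells were drawn from all kept cells outside the stricter rule, which could include Orcokinin cells and cells with a single UMI. Of 969 genes 52 were called by edgeR (5.37%), with 50 higher (5.16%) and 2 lower (0.206%) in the hormone-rich cells. Of these calls 29 were also made by DESeq2, which called 32. With library sizes in place of TMM factors the split was 83 higher and 16 lower, and the median log2 fold change of all genes was 0.17 in place of -0.05.

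Genes of peptide processing and dense-core vesicles were among these calls. Of 18 such genes listed, 9 had enough UMIs to be tested, and 8 of them were higher. Of these, amon, IA-2, Pal2 and Rab3 had 0 or 1 UMI in the matched cells, and 7B2 had 0 in Tind5 and 4 in Tgrp. All of these passed the filter on low counts only through the hormone-rich cells, so the count is a description and not support. IA-2 (FBgn0031294; chromosome 2L, 1008378 to 1048053, minus strand) had 44 UMIs in the hormone-rich cells of Tind5 and 100 in those of Tgrp, against 1 and 0 in the matched cells. This is a ratio of 1444 per UMI sequenced (95% counting interval 255 to 57430; adjusted p = 0.0043). 7B2 had 11 and 34 UMIs, against 0 and 4 in matched cells (log2 fold change 6.57 ± 0.54; adjusted p = 0.0056). Pal2, an amidating lyase, had 3 and 24 UMIs, against 0 and 1 (ratio 271, interval 44.6 to 11090; adjusted p = 0.0063). Rab3, a GTPase of secretory vesicles, had 5 and 9 UMIs, against 0 and 1 (ratio 140, interval 21.4 to 5936; adjusted p = 0.019). The convertase amon had 2 UMIs in Tind5 and 13 in Tgrp, against 0 in the matched cells of both, and was at least 50.1-fold higher over the 2 libraries (a floor of 3 counts; adjusted p = 0.022). Among all kept cells amon had 20 UMIs in the 47 hormone-rich cells and 0 in the 7791 cells that did not meet the hormone rule.

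Phm, svr and Rab2, which the matched cells also held, were higher too. Phm had 12 and 39 UMIs in the hormone-rich cells of Tind5 and Tgrp, against 13 and 66 in matched cells, which were 10 times as many, with a log2 fold change of 2.61 ± 0.33 (adjusted p = 0.015). svr had a log2 fold change of 2.51 (adjusted p = 0.021) and the vesicle GTPase Rab2 one of 2.02 (adjusted p = 0.038). mon2, at a log2 difference of 1.52, was not called (adjusted p = 0.18). The sums of the hormone-rich cells can be enough to pass the filter on low counts, and for Phm they were needed. The calls of this paragraph are therefore a description and not support.

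Genes of membrane excitability and exocytosis followed in part. The synaptotagmin gene Sytalpha was higher (log2 fold change 4.43 ± 0.46; adjusted p = 0.0085), 1 of 4 exocytosis genes tested. nrv3, a sodium pump subunit, had 2 UMIs in Tind5 and 49 in Tgrp, against 1 and 2 in matched cells (ratio 171, interval 55.1 to 854; adjusted p = 0.0061). The cation channel TrpA1 missed the threshold, with a log2 difference of 5.38 (adjusted p = 0.053). The G protein subunit Galphao was higher with a log2 fold change of 3.41, the metallothionein gene MtnD with one of 5.01 and Pepck2, a phosphoenolpyruvate carboxykinase gene, with 18 UMIs in all against 3 (ratio 60.2, interval 17.6 to 319). CG9568 had 3 UMIs in Tind5 and 201 in Tgrp, against 4 and 88 in matched cells (log2 fold change 4.21), and CG4577 (2L, 1134693 to 1141156, plus strand) had 16 and 153 UMIs, against 1 and 0 (ratio 1695, interval 300.1 to 67330). MYPT-75D, CG34198, CG44008 and mdu were among the called genes too, with log2 fold changes of 3.37, 3.33, 3.23 and 3.19, as was CG44247, with 14 UMIs in all against 1 (ratio 140, interval 21.4 to 5936). In the matched cells nrv3, Pepck2, CG4577 and CG44247 had 3 or fewer UMIs. These genes and CG9568 passed the filter on low counts through the hormone-rich cells. How the other genes of this paragraph passed it was not looked at. All calls of this paragraph are therefore a description and not support.

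Of the list for enterocytes, 4 of 30 genes could be tested and 3, all cell-junction genes, were higher (5.16% of all genes), at a median log2 fold change of 2.20 over the 4. The other tested gene also had a log2 difference above 0 but was not called. Ssk had 21 UMIs in Tind5 and 246 in Tgrp, against 49 and 430 in matched cells (log2 fold change 2.18 ± 0.32; adjusted p = 0.019), mesh had a log2 fold change of 2.21 (adjusted p = 0.025) and Tsp2A one of 2.22 (adjusted p = 0.045). These encode the smooth septate junction of the gut lining, as does hoka (1.85; adjusted p = 0.037), which was on no list and was picked after its value was seen. Of the 30 genes, 8 had a UMI in the hormone-rich cells. The list summed to 3432 CPM in Tind5 and 7533 in Tgrp, against 1756 and 1522 in matched cells. Of its defining members, the trypsin and amylase genes had 0 UMIs in the 47 cells, Jon65Aiii had 1 and nub had 3, and the part of enterocyte transcripts in the result was not tested. Of the list for neurons and glia, 5 of 12 genes had a UMI, at 477 and 456 CPM, against 17.4 and 20.6. The 5 were fne, brp, nSyb, Syt1 and elav, of which nSyb, brp and Syt1 are genes of exocytosis on the list above, while ChAT, VGlut, VAChT, Gad1 and repo were at 0. Hemocyte and fat body genes were at 0, and of the muscle genes vn had 2 UMIs.

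The 2 genes called lower were Sirup, an assembly factor of succinate dehydrogenase, with 0 UMIs in Tind5 and 1 in Tgrp, against 32 and 237 in matched cells (log2 fold change -4.77 ± 0.73; adjusted p = 0.021), and the small heat shock gene Hsp26, with 1 and 17 UMIs, against 247 and 699 (log2 fold change -2.70 ± 0.53; adjusted p = 0.045). Of the other lists, 0 of 5 stem cell and enteroblast genes tested were called, at a median log2 difference of -1.13, 0 of 12 glycolysis genes at -0.91, 0 of 12 genes of the endoplasmic reticulum at 0.78 and 0 of 4 clone and tumor genes at -1.43, each list with 3 genes at an unadjusted p under 0.05 in edgeR. Of 18 fate regulators 2 could be tested, and neither was called. Ras85D, at 763 CPM in Tind5 and 1071 in Tgrp, against 1589 and 2231 in matched cells, was not called (log2 difference -1.22; adjusted p = 0.089).

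**Figure D4:**
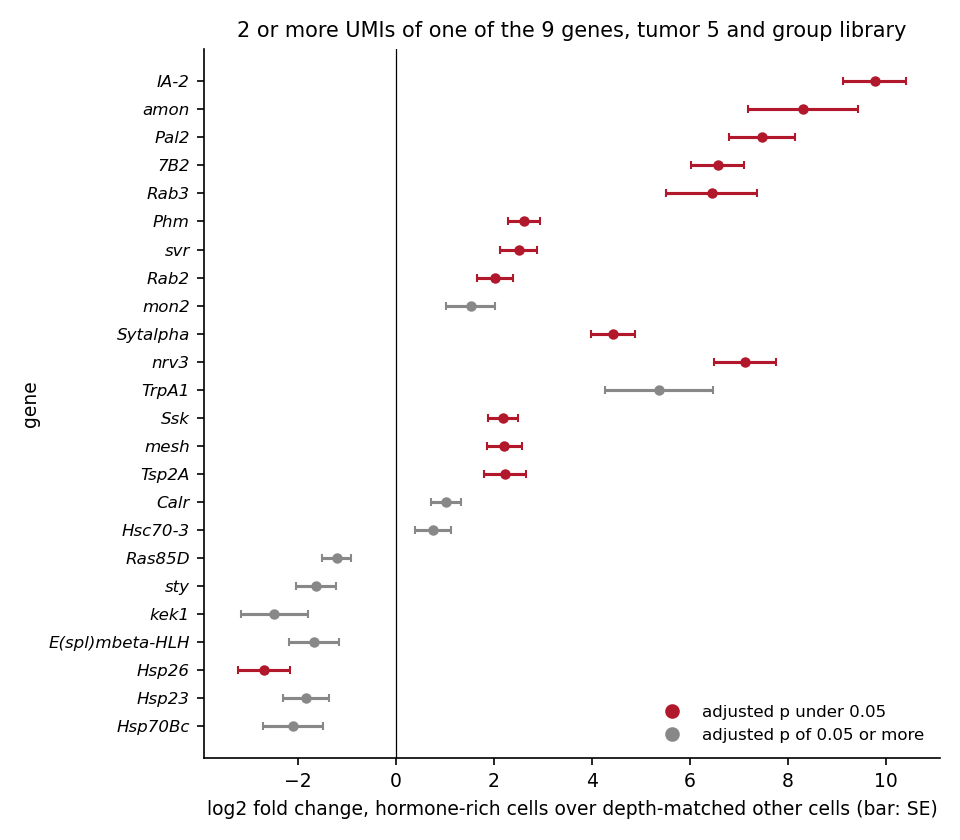
Fitted log2 fold changes (x axis) with standard errors of 24 listed genes, for the cells with 2 or more UMIs of one of the 9 genes over depth-matched other cells in Tind5 and Tgrp; red points have an adjusted p under 0.05 and gray points do not. Peptide-processing genes lie at 1.52 to 9.78 and junction genes near 2.2, while Hsp26 lies at -2.70; the values of amon, IA-2, Pal2 and Rab3 rest on 0 or 1 UMI in the matched cells.

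The 4 remaining cells of this kind, in libraries too thin for the test, were read by their UMIs. The 2 Tind2 cells, rich in AstC and Orcokinin, had 5 UMIs of IA-2, 4 of amon, 2 of 7B2, 9 of CG4577 and 6 of nrv3, and the Tind6 cell had 1 of IA-2, 1 of amon, 2 of Pal2 and 5 of CG4577, against 0 in their 30 matched cells. The Tind1 cell, chosen by 2 UMIs of Mip, had none of these genes. With these 3 libraries added to the fit, 108 genes passed the filter on low counts and 2 were called.

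The same genes were found unevenly over the kinds of hormone-expressing cells. At least 1 UMI of amon, 7B2, Pal2 or IA-2, a group chosen after its values were seen and given as a description, was found in 36 of the 47 hormone-rich cells (76.6%; exact 95% interval 62.0 to 87.7%). By leading gene this was 15 of 18 Tk-led cells (83.3%), 12 of 17 AstA-led cells (70.6%) and 5 of 7 pros-led cells (71.4%). At 2 or more UMIs of these genes it was 15 Tk-led, 9 AstA-led and 1 pros-led cell, so most pros-led cells rest on 1 UMI. It was found in 6 of 44 cells with 1 hormone UMI (13.6%), in 0 of 15 cells whose 1 UMI was of Dh31 or CCHa2 (up to 21.8%), and in 0 of 11 cells with 2 or 3 Orcokinin UMIs (up to 28.5%). Depth-matched other cells had it in 7 of 1080 (0.648%), all other kept cells in 36 of 7791 (0.462%), and cells with 2 or more UMIs of enterocyte genes, outside the hormone rule, in 11 of 1640 (0.671%), or 8 of 525 (1.52%) without Ssk, mesh and Tsp2A. With every cell thinned to 300 UMIs, IA-2 alone was found in 22 of the 47 cells (46.8%), against 0 of 1062 matched cells, and without thinning in 30 of 47 (63.8%), against 2 of 1080 (0.185%). These matched cells were chosen for all 108 hormone-expressing cells, with a median of 1287.5 UMIs, against 935 in the 47. Most cells with 2 or more UMIs of one of the 9 genes thus held a gene of peptide processing. The genes were picked in these same cells, so the share describes them and is no test of the label of enteroendocrine cells. The 11 cells with 2 or 3 Orcokinin UMIs and most of the cells with 1 hormone UMI held none, and are called here by what they hold.

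**Figure D5:**
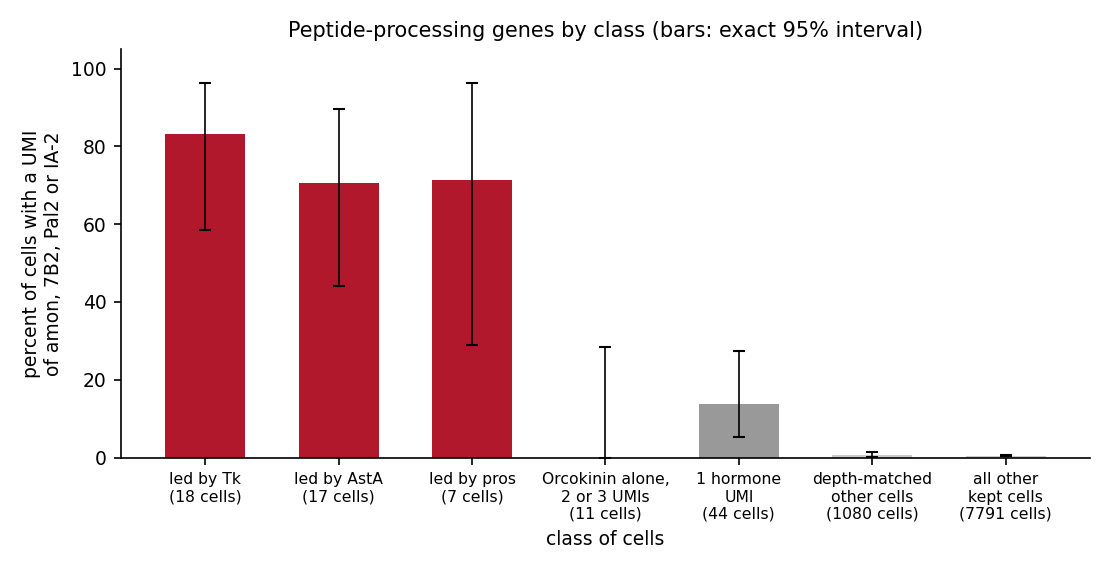
Percent of cells with at least 1 UMI of amon, 7B2, Pal2 or IA-2 (y axis, bars with exact 95% intervals) by class of cells (x axis, number of cells in parentheses). Cells led by Tk, AstA or pros reach 70.6 to 83.3%, cells with 2 or 3 Orcokinin UMIs 0%, cells with 1 hormone UMI 13.6%, depth-matched cells 0.648% and all other kept cells 0.462%. Of the 7 pros-led cells, 1 held 2 or more UMIs of these genes.

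Position in expression space showed the same split. Without the 10 genes, and with each library centered, hormone-expressing cells made up a mean of 64.5% of the 30 nearest cells of a hormone-rich cell (76.9% for AstA-led and 63.5% for Tk-led cells), 2.73% for cells with 2 or 3 Orcokinin UMIs and 3.18% for cells with 1 hormone UMI, against 0.565% for depth-matched other cells. At least 3 hormone-rich neighbors were found for 39 of the 47 hormone-rich cells, against 0 of 1080 matched cells. Of the 165 cells with the highest doublet scores of Scrublet, 141 were kept cells, and 1 of these was hormone-expressing. This number is too small to set against the 1.37% of all kept cells.

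Tk-led and AstA-led cells of Tgrp, compared as values of 10 and 17 cells with no test, had different levels of several genes. The sums rest on few cells, since 2 cells held 58.9% of all UMIs of the Tk-led cells and 3 held 74.9%, against 23.3% and 31.7% in the AstA-led cells. Ssk stood at 3448 CPM in the Tk-led and 7738 in the AstA-led cells, against 841 in the matched cells of Tgrp, and mesh at 575 and 2276, against 203. These matched cells were chosen for all hormone-expressing cells of Tgrp, not for the cells led by Tk or AstA or for the stricter rule. Ras85D stood at 1326 in the Tk-led cells and at 101 in the AstA-led cells (2 UMIs in 17 cells), against 2324 in the matched cells. The progenitor gene esg, whose regulatory region drives the clone's Gal4, stood at 177 in the Tk-led cells and had 0 UMIs in the AstA-led cells, against 218. Of excitability genes, TrpA1 had 8 UMIs in the Tk-led and 4 in the AstA-led cells, and the calcium channel gene Ca-alpha1D had 2 and 13. In the 6 pros-led cells of Tgrp, 2 of which held 57.0% of their UMIs, Ras85D stood at 1992 and esg at 344 CPM. The reporter Cd8a-EGFP was found in 1 of the 47 hormone-rich cells, 2 of the 11 Orcokinin cells and 8 of the 44 cells with 1 hormone UMI, against 138 of 1080 matched cells. Those 1080 cells were matched to all 108 hormone-expressing cells, with 140 from Tind1 and 120 from Tind4, and not to the 47. Flybow also encodes other fluorophores, so these are not shares of labeled cells.

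Core cells and cells with a single UMI were then compared directly, in Tind1, Tind4, Tind5 and Tgrp. Of 185 genes 3 were called (1.62%), all lower in core cells and all heat shock genes. Hsp26 stood at 2675, 0, 298 and 264 CPM in the core cells of Tind1, Tind4, Tind5 and Tgrp, against 31110, 349.5, 1318 and 6324 in the cells with 1 UMI (log2 fold change -3.83 ± 0.35; adjusted p = 0.00031). Hsp23 had a log2 fold change of -3.14 ± 0.48 (adjusted p = 0.011) and Hsp83, a chaperone that most cells use, one of -1.83 ± 0.31 (adjusted p = 0.013), and all 3 were lower in 4 of 4 libraries. These were few cells. Of the 627 Hsp26 UMIs in the 44 cells with 1 hormone UMI, 87.6% were in 3 cells, and 1 cell held 218 of the 243 in Tgrp. None of the 3 was called without the library block, and Hsp83 was lost without Tind1 (adjusted p = 0.22), where Hsp26 had no value, and without the filter on low counts (adjusted p = 0.75). The classes were not matched for depth, with medians of 5025, 2263, 813 and 1133.5 UMIs per core cell against 1533, 3606, 808 and 1623 per cell with 1 hormone UMI.

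Cells with Orcokinin alone could be set against the other hormone-expressing cells in Tind1 (4 against 10 cells) and Tind4 (5 against 7 cells). edgeR called 0 of 249 genes (0.0%), with 17 at an unadjusted p under 0.05, and DESeq2 called 0. Lactate dehydrogenase (Ldh), which reduces pyruvate to lactate, stood at 9079 and 5155 CPM in the Orcokinin cells of Tind1 and Tind4, against 5310 and 1747 in the others, a log2 difference of 1.22 (adjusted p = 0.56). Ras85D had a log2 difference of -1.84 (adjusted p = 0.66).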

How the data were processed

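Single cells of 7 libraries of 1 genotype were analysed. Per the labels and the methods of the study, the authors made the deposited counts from Chromium 3′ libraries with Cell Ranger 6.0.1, using release r6.42 of the fly genome. The values are whole-number counts of UMIs per gene and called cell, without normalization or filters. Of the 9914 deposited cells, those with 100 to 2000 genes and at most 15% mitochondrial UMIs were kept (7899). Doublets stayed in, and an alternative left out the 165 cells with the highest Scrublet scores, since the threshold Scrublet set itself marked 14. The hormone rule, the gene lists and the tests were chosen with earlier results of these data known.

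Comparison cells were the 10 cells of the same library nearest in log total UMIs to each member. UMIs were summed per library and class for libraries with at least 3 cells in each class, and the sums were compared by the quasi-likelihood test of edgeR 4.0.16, with TMM factors, the filter of filterByExpr and p-values adjusted by Benjamini-Hochberg (a gene was called at an adjusted p under 0.05). Both sums of a pair come from the same library, so the library was a block. Libraries are separate dissections of tumors. DESeq2 1.42.0 was an alternative. The stricter rule (2 or more UMIs of one of the 9 genes) was at first another setting of the rule, and was made a comparison of its own after its result was seen. On simulated data with a log2 change of 2, edgeR recovered 97.5% of changed genes for all hormone-expressing cells, 83.5% for the core, 93.5% for core against single-UMI cells, 62.9% for Orcokinin alone and 73.0% for the stricter rule. Neighbors were found in 30 principal components of 2000 variable genes (scanpy 1.11.5).

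The named genes are the 10 rule genes, genes of the 21 lists, the 15 largest rises and falls among called genes with UMIs in the higher class of at least 3 libraries and, where fewer than 5 passed, those with the 10 smallest p-values. Sirup and hoka were added after their values were seen. Gene positions come from an Ensembl annotation of genome release 6. Levels are in CPM without the 10 rule genes. No sequences are printed.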

Additional observations from a re-analysis of the deposited data

Results flagged for a closer look

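Among the 6 individual tumors, 15 shares of cells were looked at for a tumor that stands apart from the others, and 6 had one. Chance gives about 1 in 20 for ordinary measurements, a rate that does not hold for shares of so few cells, where a gene seen in 1 tumor always stands apart. The core, 2-or-more-UMI and Tk shares of Tind5 largely count the same cells. In Tind5, core cells made up 2.36% of the kept cells, against 0 to 0.649% in the other tumors, cells with 2 or more UMIs of one of the 9 genes 1.81%, against 0 to 0.324%, and cells with a Tk UMI 1.99%, against 0 to 0.255%. In Tind4, cells with Orcokinin alone made up 0.649%, against 0 to 0.194% in the others. NPF was found in 1 cell of Tind4 (0.130%) and Mip in 1 cell of Tind1 (0.0484%), against 0 in the other tumors, so both rest on a single cell. What sets these tumors apart was not tested.

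Of the cells that the filters left out, 31 met the hormone rule (1.54%), against 1.37% of the kept cells. Of these, 24 had more than 15% mitochondrial UMIs, 8 more than 2000 genes and 1 fewer than 100 genes, with some in more than one class, and 11 had 2 or more UMIs of one of the 9 genes. They held 51 Tk UMIs in 10 cells and 46 AstA UMIs in 4 cells, most of them from Tgrp and, for Tk, Tind5.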

How the results depend on the processing

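The mean share of hormone-expressing cells, 1.14%, was 0.511% with cells thinned to 300 UMIs, at most 1.17% under the other alternatives and 0.746 to 1.30% with each tumor left out; the SD of 1.04 between tumors is a wide margin. Counts of called genes depended on the setting. For all hormone-expressing cells the count of 1 became 0 to 15 with each library left out (15 without Tind1, 0 without Tind4, 0 without Tgrp), 3 with DESeq2, 66 without the filter on low counts, 2 with a mitochondrial limit of 30%, 10 against all other kept cells, 0 in the individual tumors alone and 52 under the stricter rule. For core cells the count of 0 became 0 to 6 with each library left out (6 without Tind1), 3 with DESeq2, 75 without the filter, 29 against all other kept cells and 52 under the stricter rule. Leaving Orcokinin out of the rule, chosen after seeing the data, gave 2 and 126 calls. Against single-UMI cells the 3 calls became 4 to 5 with each library left out and 11 without the filter, of which 1 (without Tind1, with 2 of the 3 tested) and 2 (without the filter) were among the 3, and the Orcokinin-only comparison had 11 calls without it.

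Without the library as a block, which pairs both sums of a library, the counts were 0 for all hormone-expressing cells, 0 for core cells, 0 for core against single-UMI cells, 0 for Orcokinin-only cells and 65 for the stricter rule. For the stricter rule, alternatives chosen after seeing the data gave 32 calls with DESeq2, 99 without TMM, 77 without the filter, 73 without Scrublet-marked cells, 90 with the limit of 30%, 133 against all other kept cells and 83 with 5 comparison cells. With every library that had such a cell there were 2 calls among 108 genes, and 0 to 6 with each of these libraries left out (0 without Tgrp, 1 without Tind5). Leaving out Tind5 or Tgrp from its own fit, or either library from the Orcokinin-only fit, leaves 1 library with no residual degrees of freedom and was not run. No called gene changed direction, but without TMM the median log2 fold change under the stricter rule was 0.17 in place of -0.05 over all genes and 0.16 in place of -0.10 over the nuclear respiratory genes. The few cells per library limit depth: the hormone-rich sums of Tind5 and Tgrp held 10491 and 56952 UMIs, so genes with few UMIs could not be tested.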
